A study of Homo sapiens with 16 samples.

Results

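SPINK1, REG4, TSPAN1, HNF4G, AGR2, AGR3, TFF3, CEACAM6 and MUC13 are genes of intestinal and other secretory epithelia that were followed through spheroids of 3 prostate cancer cell lines. These 9 genes, of 62703 in the count table, were chosen by name, with the rise of SPINK1 and REG4 in 22Rv1 after knockdown of MED12 already known. Their siCtrl levels and their siMED12 effect in 22Rv1 are therefore described without a test, whereas LNCaP and PC3 are tested. Of the 9 genes, 5 passed the filter on low counts (SPINK1, REG4, TSPAN1, AGR2 and MUC13) and were among the 10566 genes tested.

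The study asked how prostate cancer cells of differing androgen dependence respond to loss of MED12, the Mediator subunit that activates the CDK8 kinase. LNCaP cells are sensitive to the antiandrogen enzalutamide, 22Rv1 cells are resistant to the drug, and PC3 cells grow independently of androgen. Each line was transfected with 25 pmol of a pool of siRNAs, either against MED12 (siMED12) or non-targeting (siCtrl), kept in monolayer for 3 days and then as spheroids for 4 days. RNA was counted by BRB-seq, a method that barcodes each sample early and sequences the 3′ end of transcripts. There were 3 siCtrl libraries of each line, 3 siMED12 libraries of LNCaP and 2 siMED12 libraries, replicates 1 and 3, of each of 22Rv1 and PC3. All groups share the same medium and transfection reagent, and no untransfected cells were analysed here. The labels do not say whether replicates were separate cultures, so the p-values measure the spread between these libraries, which may be technical.

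Library totals ran from 479118 to 993807 counts. Levels are given as CPM, counts scaled to a common library total with TMM factors, and 3 counts correspond to 3.15 to 6.22 CPM depending on the library. Lines could be told apart by their markers: 8 LNCaP markers summed to 5900 to 6670 CPM in LNCaP siCtrl and 73.6 to 111 CPM in PC3 siCtrl, and 8 PC3 markers to 3970 to 4380 CPM in PC3 siCtrl and 139 to 183 CPM in 22Rv1 siCtrl. MED12, the target, averaged 19.8 ± 3.39 CPM (SD, n = 3) in 22Rv1 siCtrl and 8.2 ± 1.1 CPM (n = 2) in siMED12, with all siMED12 libraries below all siCtrl libraries, and its adjusted p in the edgeR test was 0.175. In LNCaP it averaged 11.5 ± 1.48 and 8 ± 2.04 CPM (adjusted p = 0.878), and in PC3 18.5 ± 9.99 and 15.2 ± 0.926 CPM (adjusted p = 0.987). The knockdown was thus not called in any line at this depth, where MED12 had 5 to 22 counts in a library. The study itself reported efficient knockdown of MED12 in the spheroids. Replicate 3 of 22Rv1 siMED12 held transcripts that marked PC3. Over 6 genes with at least 50 CPM in PC3 siCtrl and at most 1 CPM in each siCtrl library of the other lines, its level was 2.74% of that in PC3, against 0.251% in replicate 1 and 0% in 22Rv1 siCtrl. A wider rule, added after the data were seen, took 62 genes with a mean of at most 2 CPM in the siCtrl libraries of each other line, and gave 5.5%, 1.22% and 0.751% to 0.938%. By the wider rule, replicate 3 of PC3 siMED12 likewise held 4% of the LNCaP level over 5 genes, against 1.91% in replicate 1. The effects on the members that rest on these libraries are given with and without them. The log2 fold change of MED12 was -1.28 in 22Rv1 and -1.41 without replicate 3 of siMED12, and -0.22 in PC3 and -0.17 without replicate 3.

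SPINK1 encodes a secreted inhibitor of trypsin, made in the pancreas and in gut epithelium and overexpressed in a subset of prostate cancers. REG4 is a secreted lectin of enteroendocrine and goblet cells, MUC13 is a membrane mucin of the intestinal surface, and AGR2 and its neighbour AGR3 are protein disulfide isomerases of the endoplasmic reticulum, AGR2 being needed for mucin folding. TFF3 is a trefoil peptide of goblet cells, CEACAM6 a cell adhesion glycoprotein, TSPAN1 a tetraspanin of epithelial cells and HNF4G a nuclear receptor that drives transcription of gut and liver genes.

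Positions are those of the outer gene bounds in Gencode release 44 (GRCh38). SPINK1 is at chr5:147824572-147831671 on the minus strand, REG4 at chr1:119794017-119811580 on the minus strand, TSPAN1 at chr1:46175073-46185962 on the plus strand and MUC13 at chr3:124905442-124953819 on the minus strand. AGR2 (chr7:16791811-16833433) and AGR3 (chr7:16859412-16881987) are neighbours, both on the minus strand. CEACAM6 is at chr19:41750977-41772211 on the plus strand, and TFF3 at chr21:42311667-42315409 on the minus strand. Annotated genes that overlap TSPAN1, AGR3 or CEACAM6 had 0 counts in the 16 libraries, so no count of a member is shared with a counted overlapping gene.

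The sequence upstream of the transcript start is shown for the 5 genes that were tested, because they are the members that were higher in 22Rv1 siMED12 and any motif they have in common can be read there. These are RefSeq sequences (GRCh38.p14), 5′ to 3′ on the strand of the gene, from the 250 bases before the start. Bases inside an exon of any Gencode transcript are not printed, which leaves out the last 120 bases of REG4 and the last 14 of TSPAN1. Printed are chr5:147831672-147831921 (minus) for SPINK1, chr1:119811581-119811710 (minus) for REG4, chr3:124934752-124935001 (minus) for MUC13, chr7:16805000-16805249 (minus) for AGR2 and chr1:46174837-46175072 (plus) for TSPAN1. In each of them but SPINK1 the RefSeq start lies inside the outer bounds of the Gencode gene. Capitals mark exact matches, on either strand, to any of 6 core motifs. The HNF4 motif was searched as CAAAGTNCA. The forkhead motif of FOXA factors was searched as TGTTTAC, and the caudal motif of CDX factors as TTTATG. The motif of the zinc finger factors named GATA was searched with the letters AGATAA. The E-box was searched as CACGTG, and for the core promoter element named TATA the letters were TATAAA.
SPINK1: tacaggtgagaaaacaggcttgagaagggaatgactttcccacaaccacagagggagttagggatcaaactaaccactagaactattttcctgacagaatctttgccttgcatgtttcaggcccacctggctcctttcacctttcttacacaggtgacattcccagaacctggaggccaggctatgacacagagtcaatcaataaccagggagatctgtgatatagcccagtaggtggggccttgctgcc
REG4: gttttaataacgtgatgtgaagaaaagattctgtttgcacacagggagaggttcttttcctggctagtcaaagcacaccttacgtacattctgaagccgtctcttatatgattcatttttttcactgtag
MUC13: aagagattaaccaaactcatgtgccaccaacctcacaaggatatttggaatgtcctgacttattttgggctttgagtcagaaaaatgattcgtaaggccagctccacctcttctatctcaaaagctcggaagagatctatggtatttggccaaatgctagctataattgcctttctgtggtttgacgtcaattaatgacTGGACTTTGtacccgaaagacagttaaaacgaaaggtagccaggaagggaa
AGR2: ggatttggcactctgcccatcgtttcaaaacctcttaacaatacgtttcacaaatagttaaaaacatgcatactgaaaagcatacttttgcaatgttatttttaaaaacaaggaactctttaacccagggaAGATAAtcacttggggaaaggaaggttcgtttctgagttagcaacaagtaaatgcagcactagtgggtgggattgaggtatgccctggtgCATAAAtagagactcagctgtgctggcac
TSPAN1: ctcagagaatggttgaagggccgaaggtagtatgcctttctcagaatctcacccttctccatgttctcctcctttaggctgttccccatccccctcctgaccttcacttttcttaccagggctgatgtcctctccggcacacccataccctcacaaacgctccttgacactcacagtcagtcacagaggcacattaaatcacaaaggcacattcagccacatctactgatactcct

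No motif of the 6 was held by all 5 genes, and SPINK1 and TSPAN1 held none of them. MUC13 held the HNF4 motif on the minus strand at bases -51 to -43, a match found in 0.94% of the 35116 promoters in the RefSeq table. In the whole window of 250 bases, REG4 held a CDX match at -112 to -107 (9.64%), a GATA match at -122 to -117 (9.17%) and TATA at -31 to -26 (10.7%), none of them in the stretch printed. AGR2 held a GATA match at -119 to -114 and a CDX match on the minus strand at -29 to -24. Of the other members, AGR3 held a CDX match and TATA, and CEACAM6 an E-box (6.34%) and TATA. No member held the FOXA motif (2.98%). Apart from the HNF4 match these are short strings found in many promoters, and no motif overlapped another.

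**Figure D1:**
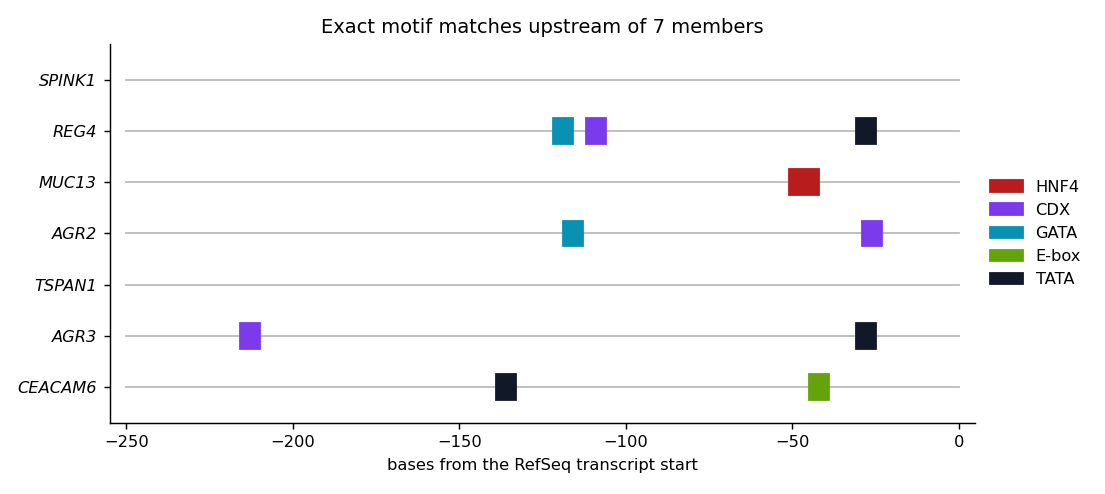
Positions of exact motif matches in the 250 bases before the RefSeq transcript start of 7 members; the x axis is the distance in bases from the start and each coloured box is 1 match on either strand. SPINK1 and TSPAN1 have no box, MUC13 is the only one of the 7 with an HNF4 box, and no motif recurs in all of them.

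Among the siCtrl spheroids, SPINK1, REG4, MUC13 and AGR2 were highest in 22Rv1, and TSPAN1 was highest in LNCaP. SPINK1 was at 13, 6.69 and 20.5 CPM in the 3 libraries of 22Rv1 siCtrl. In LNCaP it had 1, 0 and 0 counts, and in PC3 0, 1 and 2 counts. The 22Rv1 range did not overlap that of either other line, and the LNCaP and PC3 ranges overlapped, at or below the 3 counts that a listed 0 allows. REG4 was at 14.3, 8.36 and 6.42 CPM in 22Rv1, and its mean there was 4.24 times that in LNCaP, where it had 2, 1 and 2 counts. The ratio of the summed counts was 4.39, with an exact 95% interval of 1.61 to 14.9 for counting error. PC3 held 0, 1 and 1 counts of REG4, overlapping LNCaP. MUC13 was at 31.2, 18.4 and 30.8 CPM in 22Rv1, was listed at 0 in the 3 LNCaP libraries and had 1, 0 and 4 counts in PC3.

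AGR2 was the most abundant member, and the ranges of the 3 lines did not overlap. Its siCtrl levels were 380, 393 and 486 CPM in 22Rv1, 375, 331 and 303 CPM in PC3 and 99.4, 37.2 and 85.9 CPM in LNCaP. The lowest 22Rv1 library was only just above the highest PC3 library, the ratio of the means being 1.25, whereas PC3 exceeded LNCaP 4.54-fold. TSPAN1 ran in another order. It was at 109, 117 and 89 CPM in LNCaP, 47.7, 30.5 and 44.8 CPM in PC3 and 5.21, 1.67 and 3.85 CPM in 22Rv1, so that LNCaP exceeded PC3 2.57-fold without overlap. The 22Rv1 values were 4, 1 and 3 counts, near the limit of counting, and PC3 exceeded them 10.8-fold by the summed counts (95% interval for counting error 5.25 to 25.6).

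The other 4 members were near the limit of counting. HNF4G, which lies at 75407914 to 75566834 on the plus strand of chromosome 8, had 6, 3 and 8 counts in 22Rv1 siCtrl, 3, 6 and 2 in PC3 and 0 in each LNCaP library, and the 22Rv1 and PC3 ranges overlapped. TFF3 was seen in LNCaP alone, with 3, 8 and 6 counts in siCtrl, and had 0 counts in all 5 libraries of 22Rv1 and all 5 of PC3. CEACAM6 was seen mainly in PC3, with 6, 2 and 1 counts in siCtrl. AGR3, the relative of AGR2 that lies beside it, had at most 3 counts in any siCtrl library, while AGR2 reached 379.

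As a background for these orders, the siCtrl ranges of LNCaP and 22Rv1 did not overlap for 51.2% of the 10566 tested genes, those of LNCaP and PC3 for 60.2% and those of 22Rv1 and PC3 for 58.9%. The corresponding counts among the 5 tested members were 5, 2 and 5. The members were picked with their pattern known, and nothing is read from these counts.

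**Figure D2:**
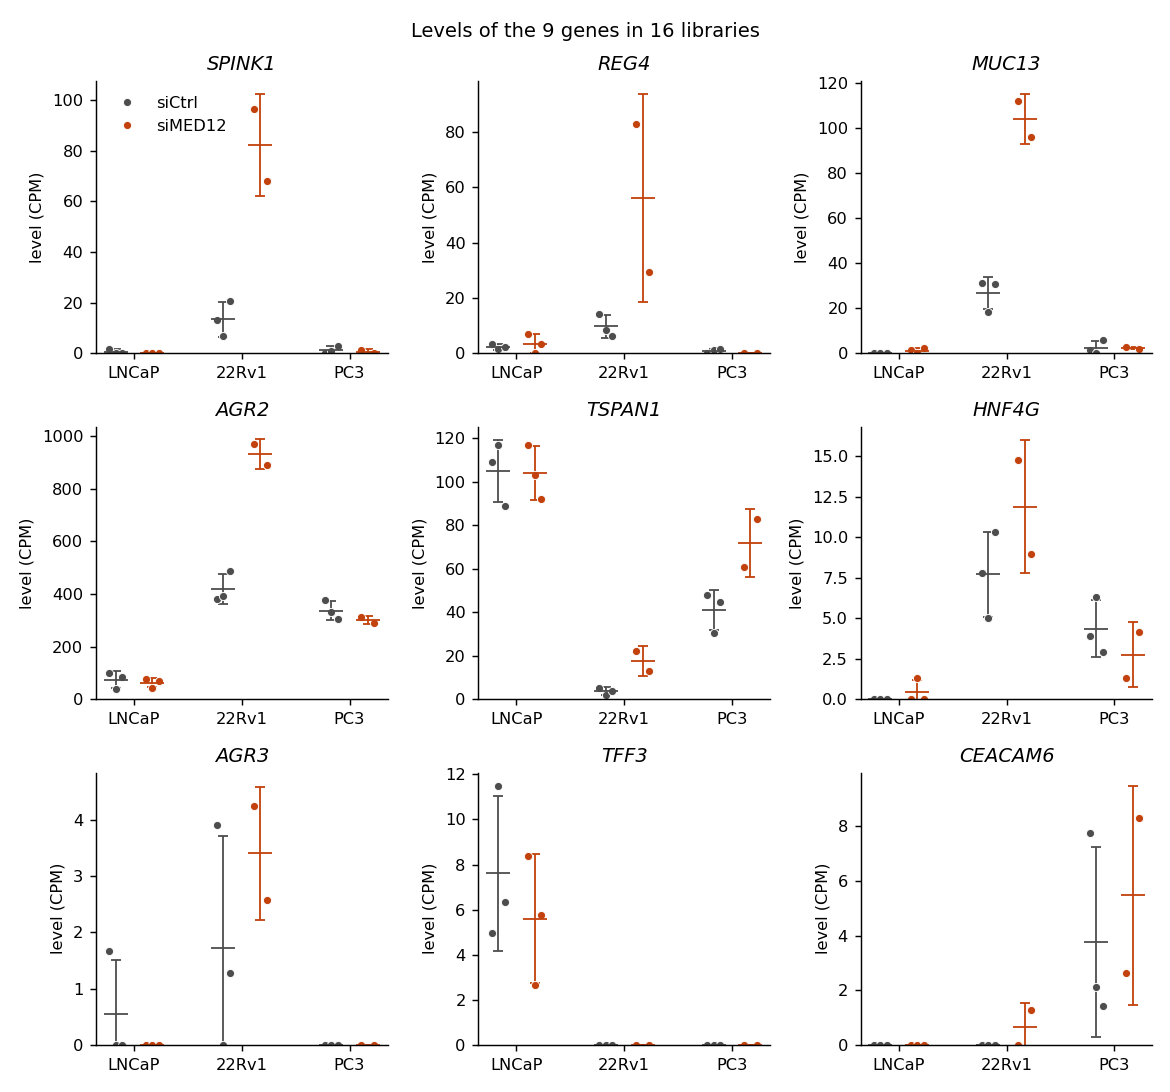
Level (CPM, linear axis from 0, scale differing between panels) of the 9 genes in each of 16 libraries; points are libraries, horizontal bars the group mean and error bars the SD. SPINK1, REG4, MUC13 and AGR2 stand highest in 22Rv1 siMED12, TSPAN1 stands highest in LNCaP, and TFF3 has points above 0 in LNCaP alone.

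In 22Rv1 the 5 members that were tested were higher in siMED12 than in siCtrl, by 2.21-fold to 5.9-fold. SPINK1 went from 13.4 ± 6.93 CPM (SD, n = 3) to 96.5 and 68 CPM, a log2 fold change of 2.56 (SE 0.324), or 5.9-fold. REG4 went from 9.7 ± 4.12 CPM to 82.7 and 29.5 CPM, a log2 fold change of 2.54 (SE 0.405), or 5.83-fold. The 2 siMED12 libraries differed most for REG4. Without replicate 1 of siMED12 its log2 fold change was 1.56, and without replicate 3 it was 3.06. SPINK1 was at 2.26 and 2.78 in the same way. Both transcripts stood above all siCtrl libraries in either siMED12 library, but the size of the REG4 difference depended on which of them was used.

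The membrane mucin MUC13 was at 26.8 ± 7.29 CPM in siCtrl and at 112 and 96.2 CPM in siMED12, a log2 fold change of 1.93 (SE 0.262) or 3.81-fold. AGR2 went from 420 ± 58 to 971 and 890 CPM, a log2 fold change of 1.15 (SE 0.171) or 2.21-fold. This was the smallest fold among the 5 and the largest difference in level, and its 2 siMED12 libraries were the closest to each other in proportion. TSPAN1 went from 4, 1 and 3 counts (3.58 ± 1.78 CPM) to 21 and 10 counts (22.3 and 12.8 CPM), a log2 fold change of 2.22 (SE 0.526) or 4.65-fold. With so few counts in siCtrl its size is uncertain, the ratio of the summed counts being 4.83 with a 95% interval of 2.17 to 12.2 for counting error. Even so, TSPAN1 in 22Rv1 siMED12 stayed below every library of LNCaP and PC3.

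All 5 were above every siCtrl library in both siMED12 libraries, a separation that 13.8% of tested genes showed in this direction. Of the tested genes, 0.994% were called higher by edgeR in this contrast (adjusted p under 0.05) and 0.842% lower. The contrast was used to choose the members, so these shares are a description. SPINK1 and REG4 passed the filter on low counts through the 22Rv1 siMED12 libraries alone and had to differ, whereas TSPAN1, AGR2 and MUC13 pass it without those libraries.

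HNF4G had 14 and 7 counts in 22Rv1 siMED12 against 6, 3 and 8 in siCtrl, or 11.9 ± 4.15 against 7.7 ± 2.63 CPM, and the ranges overlapped. AGR3 had 4 and 2 counts against 3, 0 and 1, CEACAM6 0 and 1 counts against 0 in each siCtrl library, and TFF3 remained at 0. None of these 4 was tested, and a difference was not detectable at this depth.

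Replicate 3 of 22Rv1 siMED12 held PC3 transcripts, and SPINK1, REG4 and MUC13 had at most 4 counts in any PC3 library. In replicate 1, which held little of the PC3 signal, SPINK1, REG4, MUC13, AGR2 and TSPAN1 were each higher than in replicate 3. Without replicate 3 the log2 fold changes of MUC13, AGR2 and TSPAN1 were 2.03, 1.21 and 2.53, and without replicate 1 they were 1.79, 1.07 and 1.73. The source of the PC3 transcripts was not tested. Their share was taken as carry-over and subtracted by the 6 genes. The log2 fold changes were then 2.58 for SPINK1, 2.56 for REG4, 1.95 for MUC13, 1.16 for AGR2 and 2.19 for TSPAN1. By the 62 genes they were 2.61, 2.59, 1.98, 1.19 and 2.46. The 18 markers of leukocytes, endothelium, stroma and endocrine cells summed to 33.8 to 43.5 CPM in 22Rv1 siCtrl, with 12 at 0, and to 49.8 to 62.8 CPM in siMED12, with 11 at 0. PTPRC, CD3E, CD68, VWF, CDH5, DCN, PDGFRB, INS and SST were at 0 in both groups, CD79A, COL3A1 and CHGA had counts in siMED12 alone, and LYZ and PECAM1 in siCtrl alone. The part of these markers in the differences was not tested. A larger share of secretory cells and more RNA per cell cannot be told apart in such bulk samples.

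**Figure D3:**
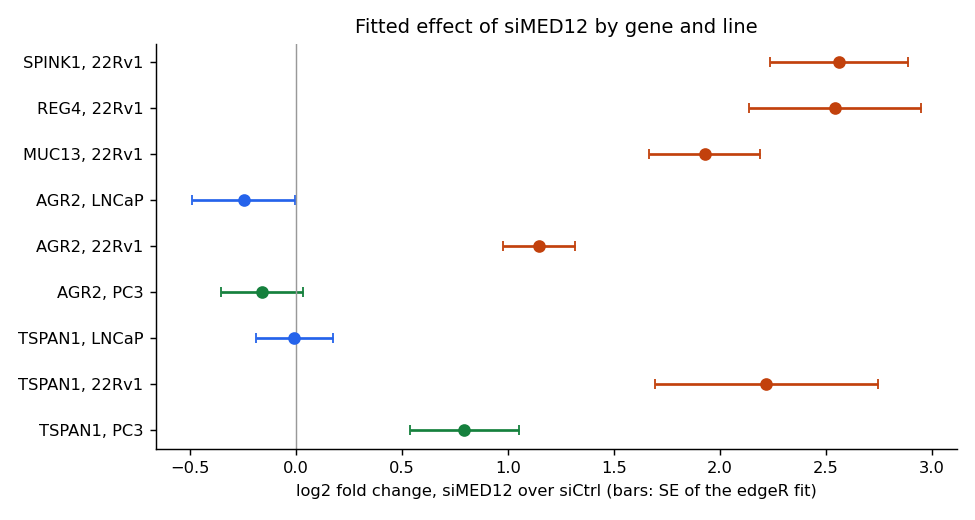
Fitted log2 fold change (siMED12 over siCtrl, x axis) with its SE (bars, edgeR) for SPINK1, REG4 and MUC13 in 22Rv1 and for AGR2 and TSPAN1 in the 3 lines; SPINK1, REG4 and MUC13 are left out of LNCaP and PC3, where their counts were at or near 0. The 22Rv1 values lie between 1.15 and 2.56, while AGR2 lies below 0 and TSPAN1 at -0.01 and 0.79 in the other lines.

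In LNCaP, where the choice of members set no direction, the effects were tested. None of the 5 tested members was called there, where 0.416% of all genes were, and none was above every siCtrl library, where 5.89% of all genes were. None had an unadjusted edgeR p under 0.05, and limma called none of them. DESeq2 called neither AGR2 nor TSPAN1, and gave SPINK1, REG4 and MUC13 no adjusted p. TSPAN1 was at 117, 103 and 92 CPM in siMED12 against 109, 117 and 89 CPM in siCtrl, and the groups overlapped. Its log2 fold change was -0.01, with a 95% interval of -0.38 to 0.36 (edgeR adjusted p = 1). AGR2 was at 76.9, 42.7 and 67.8 CPM against 99.4, 37.2 and 85.9 CPM, again overlapping, with a log2 fold change of -0.25 and an interval of -0.74 to 0.25 (adjusted p = 0.878). SPINK1 had 0 counts in each of the 3 siMED12 libraries, REG4 had 5, 0 and 3, and MUC13 had 1, 0 and 2, so that no fold can be given. TFF3, the goblet cell peptide seen in this line alone, had 6, 2 and 5 counts against 3, 8 and 6 in siCtrl. HNF4G had 0, 1 and 0 counts, and AGR3 and CEACAM6 had 0. A change in these genes was not detectable at this depth.

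In PC3 none of the 5 was called either, and the share of all genes called was 0%. The lowest adjusted p of any gene was 0.42, 527 genes had an unadjusted edgeR p under 0.05, limma called 1 gene and DESeq2 0. A fit with a block for the replicate number called 20 genes and no member. TSPAN1 came nearest to a difference. It was at 60.7 and 83 CPM in siMED12 against 47.7, 30.5 and 44.8 CPM in siCtrl, so that both siMED12 libraries were above the 3 siCtrl libraries. For this direction 8.8% of all tested genes did the same, and TSPAN1 was 1 of the 5 members to do so. The log2 fold change was 0.79 (SE 0.256, 95% interval 0.27 to 1.32), with an edgeR p of 0.00408 before and 0.857 after adjustment over all genes. Replicate 3 of PC3 siMED12, which held LNCaP transcripts, was the higher library. Without it the log2 fold change was 0.59, and with the carried-over share subtracted by the wider rule it was 0.80. AGR2 was at 311 and 290 CPM against 375, 331 and 303 CPM, with a log2 fold change of -0.16 and an interval of -0.55 to 0.23 (adjusted p = 0.978), and at -0.11 without replicate 3 of siMED12. SPINK1 had 1 and 0 counts, REG4 0 and 0, MUC13 2 and 1, HNF4G 1 and 2, and CEACAM6 2 and 4 counts in PC3 siMED12, AGR3 and TFF3 had 0, and these values were too low to give a fold.

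The difference between the PC3 and LNCaP effects was tested directly for the same genes. For TSPAN1 it was 0.80 on the log2 scale (SE 0.313, 95% interval 0.17 to 1.44), higher in PC3, with an edgeR p of 0.0153 and an adjusted p of 0.912. For AGR2 it was 0.09 (interval -0.54 to 0.72, adjusted p = 1). Without replicate 3 of PC3 siMED12 the differences were 0.60 for TSPAN1 and 0.14 for AGR2 (adjusted p = 0.916 and 1). No member was called, and 0.0284% of all tested genes were. The effects in PC3 and LNCaP were thus not shown to differ for AGR2 or TSPAN1, and SPINK1, REG4 and MUC13 had too few counts in both lines to tell.

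The genes around each member were examined to see whether whole regions moved with it. Within 500 kb of SPINK1 the tested gene was DPYSL3, and within 500 kb of REG4 there were 3 tested genes, TSPAN1 13, AGR2 4 and MUC13 5. None of them was called in 22Rv1 siMED12, where 0.994% of all tested genes were called higher and 0.842% lower. With so few neighbours tested and such shares, whether whole regions moved cannot be decided. The AGR2 neighbours that were tested include TSPAN13, BZW2 and AHR, and 2 of the 4 had positive fold changes.

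The wider set of gut-type genes was read from 6 lists that hold 164 genes besides the members: gut regulators, goblet and mucus genes, gut epithelial surface and absorptive genes, protein disulfide isomerase relatives, tetraspanins and SPINK1 partners and reported regulators. Of these, 66 passed the filter. In LNCaP and PC3 none was called by edgeR, limma or DESeq2, and the median log2 fold change was 0 and -0.01. DESeq2 gave some of them, such as LGALS4, CDH17 and APOH, no adjusted p in LNCaP. An unadjusted edgeR p under 0.05 was found for 5 in LNCaP, FOXA1, KLF4, TSPAN8, CD81 and EGFR, where 7.34% of all genes had one. In PC3 it was found for 2, SYTL2 and GPX2, where 4.99% of all genes had one. In 22Rv1, LGALS4, CDH17 and APOH passed the filter through the siMED12 libraries alone and had to differ, so they are described without a test. Among genes that pass it without those libraries, 4 of 63 in the lists (6.35%) were called higher and 0 lower, against 0.909% and 0.861% of all 10340 such genes. The lists were chosen with earlier results of these data known, so nothing is read from the difference between these shares.

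Most goblet and mucus genes were at low counts. Of 32 in the list, 17 had 0 counts in all 5 libraries of 22Rv1 and 7 in all 16 libraries, where a 0 allows up to 3 counts in each, and ZG16B and SYTL2 passed the filter. ZG16B, a secreted lectin-like protein, was at 44.2, 36.8 and 23.1 CPM in siCtrl and at 117 and 61.6 CPM in siMED12, without overlap, and its fitted log2 change was 1.39 (SE 0.262, edgeR adjusted p = 0.00199). Its level in LNCaP siCtrl was 115 ± 8.63 CPM, where siMED12 gave 138 ± 25.9 CPM (adjusted p = 0.827). SYTL2, an effector of vesicle transport, was at 32.2 ± 2 and 23.1 ± 1.83 CPM in 22Rv1 (adjusted p = 0.591). Named after their values were seen, the gel-forming mucins differed in level. MUC2 had 0 counts in all 22Rv1 libraries, whereas MUC5AC had 7 to 9 counts in 22Rv1 siCtrl and 7 to 8 in siMED12, and MUC5B had up to 16 counts in PC3 siMED12. GCNT3, a mucin glycosyltransferase, had 0 counts in 22Rv1 siCtrl and 1 to 2 in siMED12, too few to tell apart.

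The gut surface list held 2 of the 4 calls, TSPAN8 and DPP4. Of its 41 genes 12 were tested, and 9 pass the filter without 22Rv1 siMED12. The fitted log2 fold changes of the 9 in 22Rv1 were positive with a median of 0.96, where 5161 of all 10340 such genes were positive. CEACAM5, ANPEP, GPX2 and SERPINA1, 4 of the 9, had at most 4 counts in any 22Rv1 library, so that their sign and size say little. TSPAN8, a tetraspanin of colon epithelium, was at 125, 120 and 93.7 CPM in siCtrl and at 295 and 258 CPM in siMED12 (log2 fold change 1.30, SE 0.214, edgeR adjusted p = 0.000441). DPP4, a brush border peptidase, was at 31.2, 33.4 and 62.9 CPM against 83.8 and 84.7 CPM (0.96, SE 0.26, adjusted p = 0.0453). The siMED12 libraries of both genes lay above the siCtrl libraries.

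The 3 genes described without a test were near the limit of counting in siCtrl. LGALS4, a galectin of the gut epithelium, had 4, 1 and 4 counts in 22Rv1 siCtrl and 26 and 19 in siMED12, a log2 fold change of 2.59. CDH17, the liver-intestine cadherin, had 8, 6 and 3 counts against 38 and 26, a log2 fold change of 2.20. Without replicate 1 of siMED12 these were 2.48 and 2.03. APOH, a plasma apolipoprotein made in liver and gut, had 0, 2 and 3 counts against 25 and 11. CDH17 was listed at 0 in all 6 LNCaP and all 5 PC3 libraries. The epithelial genes EPCAM and VIL1 were well expressed in 22Rv1 and were not called, with log2 fold changes of 0.27 (adjusted p = 0.465) and 0.29 (adjusted p = 0.651).

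**Figure D4:**
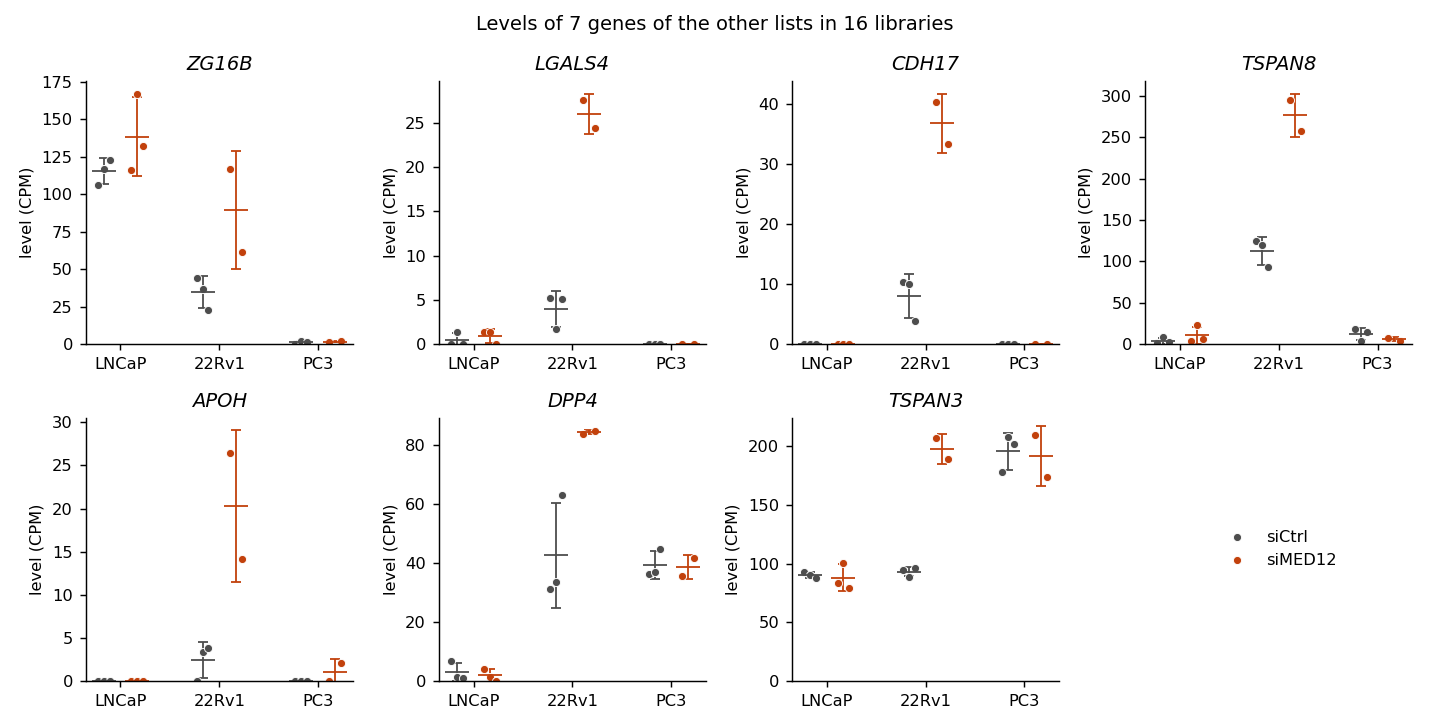
Level (CPM, linear axis from 0) in 16 libraries of ZG16B, TSPAN8, DPP4 and TSPAN3, which were called in 22Rv1 siMED12, and of LGALS4, CDH17 and APOH, which are described without a test; points are libraries, horizontal bars group means and error bars the SD. Both siMED12 libraries lie above the 3 siCtrl libraries of 22Rv1 in each panel, and in LNCaP and PC3 the groups overlap.

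Leaving out a siMED12 library of 22Rv1 leaves 1 in the group, which is then assumed to vary like the other groups. Without replicate 1, ZG16B (log2 fold change 0.82) and DPP4 (0.95) were no longer called, while TSPAN8 and TSPAN3 were. Without replicate 3, which held PC3 transcripts, DPP4 (0.95) was not called and the other 3 were. Both DESeq2 and limma called ZG16B and TSPAN3, but neither called TSPAN8 (adjusted p = 0.551 and 0.28) or DPP4 (0.29 and 0.322), at log2 fold changes close to those of edgeR. DPP4 lost its call in 11 of 25 alternatives, while TSPAN3, a widely expressed tetraspanin, kept it in 25 of 25. TSPAN3 was at 95, 88.6 and 96.2 CPM in 22Rv1 siCtrl and 207 and 189 CPM in siMED12 (1.08, SE 0.161, adjusted p = 0.000119). It was the only call among the 15 tetraspanins of that list, the family of TSPAN1 and also of TSPAN8 from the gut surface list. In 22Rv1, 5 of the 15 had an unadjusted edgeR p under 0.05, against 11.7% of all genes. They were TSPAN3, TSPAN13, TSPAN17, CD9 and CD63, and the list was chosen with earlier results known. CD81, CD63 and CD9, the most abundant of the 15, had log2 fold changes of 0.18, 0.44 and -0.45 in 22Rv1 and adjusted p of 0.583, 0.0803 and 0.353. CD63 was called without a filter (adjusted p = 0.036), with a replicate block (0.0416) and without LNCaP siMED12 replicate 2 (0.0389).

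Of 26 gut regulators 11 were tested and none was called by edgeR in any line, with a median log2 fold change of 0.24 in 22Rv1. An unadjusted p under 0.05 was found for SOX9 and SPDEF in 22Rv1, where 11.7% of all genes had one, for FOXA1 and KLF4 in LNCaP (7.34%) and for 0 in PC3 (4.99%). KLF4, an epithelial differentiation factor named after its values were seen, was at 62.4 ± 18.9 CPM in LNCaP siCtrl and 31.5 ± 25 CPM in siMED12 (log2 fold change -0.98, adjusted p = 0.264), and the groups overlapped. It was called lower without a filter (adjusted p = 0.0282), with a replicate block (0.0143) and without siMED12 replicate 1, where the log2 fold change was -1.79 (0.00258). The most abundant were FOXA1, a pioneer factor of endoderm and prostate, SOX9, a factor of intestinal stem cells, and SPDEF, a factor of goblet and luminal prostate cells. FOXA1 was at 371 ± 43.4 CPM in 22Rv1 siCtrl and 440 ± 27.1 CPM in siMED12 (adjusted p = 0.517), SOX9 at 26.1 ± 8.88 and 40.5 ± 15.3 CPM (0.416), and SPDEF at 31.1 ± 10.8 and 50.1 ± 5.59 CPM (0.281). HNF4A and CDX2, named after their values were seen, had at most 1 count in any 22Rv1 library and 0 counts in 22Rv1, respectively.

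AGR2 was also set beside its relatives. None of the 15 tested protein disulfide isomerase relatives was called by edgeR in any line. In 22Rv1 their median log2 fold change was 0.11 and 3 of the 15 had an unadjusted p under 0.05, against 11.7% of all genes. Named for that, PDIA2 had a log2 fold change of -1.04, TXNDC11 of 0.62 and DNAJC10 of 0.71. P4HB, PDIA3 and PDIA4, the housekeeping isomerases of the endoplasmic reticulum, had log2 fold changes of 0.03, 0.11 and 0.04 with SE of 0.133, 0.14 and 0.14. AGR2 at 1.15 was larger than each of these, and the difference between genes was not tested.

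Among 11 tested SPINK1 partners and reported regulators, none was called by edgeR in any line, and 2 in 22Rv1, 1 in LNCaP and 0 in PC3 had an unadjusted p under 0.05, against 11.7%, 7.34% and 4.99% of all genes. PRSS3, a trypsinogen gene, had 0 counts in 22Rv1 siCtrl and at most 4 in siMED12, and EGFR, a receptor that SPINK1 has been described to bind, was at 36.6 ± 3.67 CPM in LNCaP siCtrl and 22.6 ± 3.46 CPM in siMED12 (adjusted p = 0.543). ETV4 and ETV1, ETS factors, were at 30.3 ± 2.16 and 35.8 ± 5.62 CPM and at 3.26 ± 0.627 and 6.92 ± 0.713 CPM in 22Rv1 (adjusted p = 0.819 and 0.645).

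**Figure D5:**
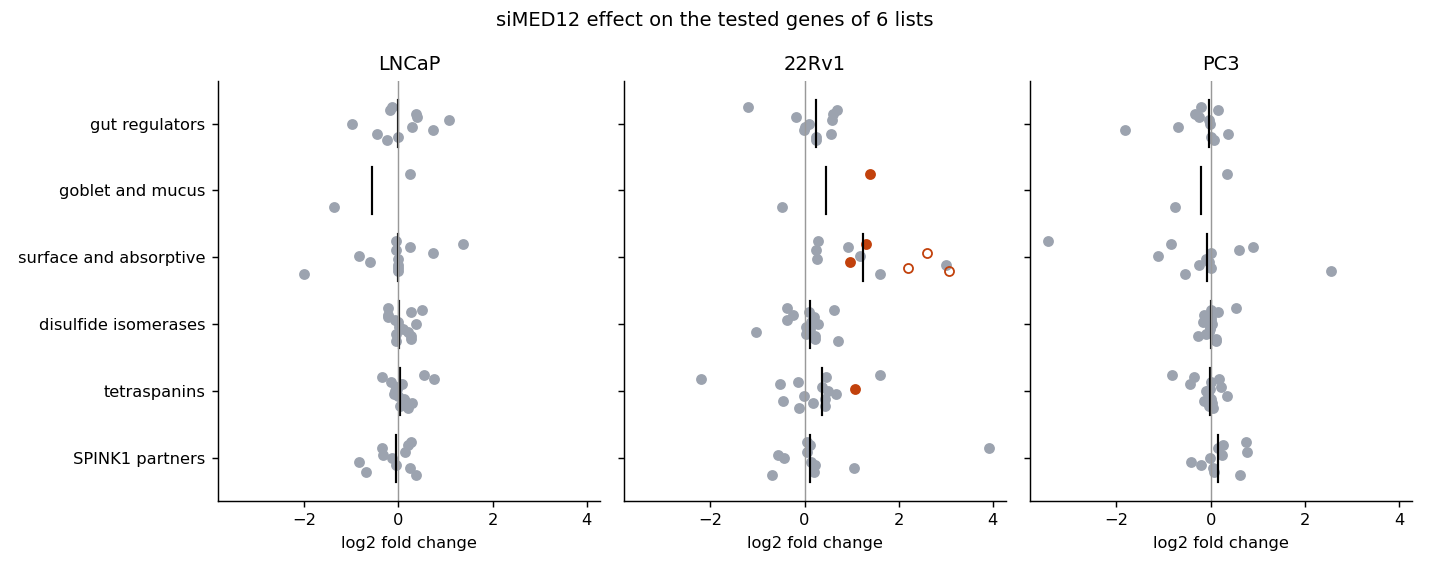
Log2 fold change (siMED12 over siCtrl, x axis) of each tested gene of 6 lists in the 3 lines; grey points were not called, filled orange points were called by edgeR, open orange points passed the filter through 22Rv1 siMED12 alone and had to differ, and black bars are list medians. Filled orange points appear in the 22Rv1 panel alone, 2 of the 4 in the gut surface list, and the list medians in LNCaP and PC3 lie near 0 except for the goblet list, of which 2 genes were tested.

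Over the 16 libraries the members fell into opposite patterns. The log2 CPM of SPINK1 went with that of MUC13 (Pearson r = 0.962) and REG4 (0.889), and that of AGR2 less closely (0.756), whereas TSPAN1 ran against SPINK1 (-0.685), MUC13 (-0.757) and AGR2 (-0.721). The libraries share their lines and treatments, so these values describe mostly the differences between lines. SPINK1 and REG4 were also chosen with their rise in 22Rv1 known and were at or near 0 elsewhere, so nothing is read from their likeness. Of 9233 candidate genes whose mean reached 10 CPM, those most like SPINK1 were PON1 (r = 0.941), CD63 (0.94) and ATP6V1C2 (0.932). PON1, a paraoxonase of liver and plasma, averaged 24.2 CPM in 22Rv1 siCtrl and 66.1 CPM in siMED12 and was listed at 0 in LNCaP siCtrl. Those most like REG4 were KIFAP3 (0.931), SPOCK2 (0.912) and SLC27A3 (0.909), and SPOCK2, an extracellular proteoglycan, averaged 26.1 CPM in 22Rv1 siCtrl and 85 CPM in siMED12. TSPAN1 was most like SLC44A3 (0.963), REEP6 (0.957) and FAM83F (0.952), which like it were highest in LNCaP and lowest in 22Rv1. AGR2 was most like ABRACL (0.961), SERPINB1 (0.961) and DPP4 (0.959), the brush border peptidase described above.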

How the data were processed

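RNA of 16 spheroid samples was profiled by BRB-seq. The authors aligned the reads with STARsolo to GRCh38.p13 with Gencode release 43 and deposited raw counts per gene, and whether molecular identifiers were collapsed is not given in the sources used here. The authors also deposited log2 CPM made with edgeR, which were recomputed from the counts with a prior count of 2 and the same filter, to within rounding error.

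Each library was assigned to line, treatment and replicate by its label. The members and the gene lists were chosen with earlier results of these data known. The edgeR expression filter (count 10, total 15) kept 10566 genes, which held 97.9% to 98.6% of the counts, and TMM factors were computed (the trimmed mean of M values). Quasi-likelihood models (edgeR 4.0.16, R 4.3.3) were fitted to all 16 libraries with a mean per group, 2-sided, with Benjamini-Hochberg adjustment over all tested genes of a contrast and a threshold of 0.05. The contrasts were siMED12 against siCtrl in each line and the difference between PC3 and LNCaP. Intervals are 95% intervals of the fit. No replicate pair was a duplicate: over 14 pairs within groups the variance was 1.6 to 3.43 times that of sampling. The floor of 3 counts allowed by a count of 0 covers counting error only.

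Besides the members and MED12, genes of the lists were named when called in a siMED12 contrast and otherwise as the 3 of a list with the highest mean CPM, and genes behind small counts of unadjusted p-values or of alternative calls were named after their values were seen (some genes of the lists are not reported here); likeness took the 3 genes with the highest Pearson r over 16 libraries among tested genes of at least 10 CPM. The share of another line carried over into a library was estimated from genes of at least 50 CPM in the siCtrl libraries of that line and at most 1 CPM in each other siCtrl library, with 6 genes for PC3, 1 for 22Rv1 and 0 for LNCaP; a wider rule with a mean of at most 2 CPM was added after the data were seen, as was the legacy form of the edgeR test. The other alternatives were another size factor, no filter, limma 3.58.1, DESeq2 1.42.0, thinning to the smallest total, a replicate block and leaving out each library. The scripts were tested on simulated counts. RefSeq upstream sequences were found for 7 of the 9 members, and motifs were searched as exact strings on both strands in 35116 upstream windows.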

Additional observations from a re-analysis of the deposited data

How the results depend on the processing

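In 22Rv1 the 5 members stayed higher in siMED12 in all 25 alternatives, with log2 fold changes of 2.26 to 3.00 for SPINK1, 1.56 to 3.06 for REG4, 1.74 to 2.04 for MUC13, 1.07 to 1.26 for AGR2 and 1.70 to 2.56 for TSPAN1. SPINK1 and REG4 were chosen for this rise and passed the filter through 22Rv1 siMED12 alone, so these ranges are a description. The alternatives that leave out an LNCaP or PC3 library keep every 22Rv1 library and can hardly move these values. REG4 was at 2.14 under limma. In LNCaP and PC3 no member was called in any alternative, the lowest adjusted p being 0.529 (MUC13) and 0.536 (TSPAN1), both with a replicate block. SPINK1, REG4 and MUC13 had at most 2, 5 and 4 counts in any library of these lines. A change in them was not detectable at that depth, so the lack of calls bears on AGR2 and TSPAN1 alone. DESeq2 gave SPINK1, REG4 and MUC13 no adjusted p in LNCaP. The LNCaP value of TSPAN1, -0.01, changed sign to 0.004 with the carry-over subtracted by the narrow rule (-0.007 by the wider one) and 0.052 after thinning, and ran from -0.13 to 0.10 when single libraries were left out. The PC3 minus LNCaP value of AGR2, 0.09, ran from -0.15 to 0.37 in the same way.

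Counts of calls over all genes moved more. In LNCaP 44 became 95 without a filter, 29 under limma and 29 under DESeq2. In 22Rv1 194 became 85 under DESeq2. In PC3 0 became 9 without a filter and 1 under limma, and the 3 calls of the difference between PC3 and LNCaP became 15 without a filter and 1 after thinning. Leaving out 1 library gave 12 to 55 calls in LNCaP, 74 to 220 in 22Rv1, 0 to 3 in PC3 and 1 to 5 for the difference. The 22Rv1 count was 74 without siMED12 replicate 1, 124 without siMED12 replicate 3 and 108 without siCtrl replicate 3, and the LNCaP count 14 and 13 without siCtrl replicates 2 and 3 and 12 without siMED12 replicate 2, and the PC3 count 3, with the list gene GPX2, without siCtrl replicate 2. Among the other lists, 1 gene, KLF4, was called in LNCaP without a filter. In 22Rv1 the main fit gave 7, of which LGALS4, CDH17 and APOH had to differ and 4 count as calls. DESeq2 gave 2, with no adjusted p for LGALS4, CDH17 and APOH. Leaving out a library gave 0 to 1 list genes in LNCaP and 0 to 1 in PC3. A group left with 1 library is assumed to vary like the others. The causes were not tested.

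Libraries of the same number were weakly alike across treatments, with r of 0.052 to 0.21 over 7 pairs and 4 above 0.1. Each resembled its own number best in 7 of 7, so the numbers may mark something shared. The labels do not say what a number shares. The main fit takes no pairs, and since the counts of calls depended on this, a fit with a replicate block is given beside it. With a replicate block the calls were 117 in LNCaP, 312 in 22Rv1, 20 in PC3 and 13 for the difference. They held 1 list gene in LNCaP, KLF4, 1 in PC3, GPX2, and 8 in 22Rv1, CD63 being added. These 8 include LGALS4, CDH17 and APOH, which had to differ. Depth limited HNF4G to at most 14 counts, TFF3 to 8, CEACAM6 to 6 and AGR3 to 4 in any library, SPINK1, REG4 and MUC13 to at most 5 in LNCaP and PC3, and TSPAN1 to at most 4 in 22Rv1 siCtrl.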
